A study of Homo sapiens with 3 samples.

Results

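Irradiated HCT116 cells with a large share of mitochondrial transcripts were described within 1 droplet library, Mix2. HCT116 is a colorectal cancer line, and its giant survivors of radiotherapy are called radiation-tolerant persister (RTP) cells in the study. Mix2 pooled RTP cells irradiated at 8 Gy, isolated on day 5 or 8 and cultured to day 10 or 11 (IR, antibody hashtag tag8, 10000 cells loaded), cells never irradiated (NC, 0 Gy, tag6, 1000 loaded) and cells that had repopulated the culture (R, tag7, 1000 loaded). The labels give no day for the R cells. A second library, Mix1, was prepared from RTP cells of the same 4 isolation and culture times without hashtags, and its barcodes cannot be assigned to those times. All cells were the same line, and each population is present once, so no comparison below is replicated and intervals cover counting error only.

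The cells were selected on measured values. A cell was taken as tag8 when it had at least 200 detected genes, at least 500 tag8 counts and at least 80% of its tag counts in tag8, which left 10162 of 13888 barcodes. Among these, cells with 10 to 40% of their unique molecular identifiers (UMIs, the counted molecules) on the 13 mitochondrially encoded genes (the MT- genes) were called high, and cells with 4 to 8% were the reference. There were 1519 high cells and 5772 reference cells. A further 1271 tag8 cells lay under 4%, 1495 between 8 and 10% and 105 above 40%. The mitochondrial share itself and every MT- level are therefore descriptions of the choice and not findings.

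The mitochondrial genome encodes subunits of the respiratory chain complexes, and its polyadenylated transcripts are captured in the same droplet reaction as nuclear messenger RNA. The share of a cell's molecules that is mitochondrial is used as a quality measure, because a cell that has lost cytoplasmic RNA through a damaged membrane is thought to keep its mitochondria and its nucleus for longer, and cells above a limit are commonly discarded. Cells also differ in this share with their metabolic activity. Irradiation is known to induce a programme of DNA damage-induced genes, in which CDKN1A holds the cell cycle and G2 and mitotic genes are repressed.

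Among tag8 cells 14.9% were high (1519 of 10162; exact Clopper-Pearson interval 14.3 to 15.7%). The share was 6.56% in tag6 cells (57 of 869; 5.01 to 8.42%), which needed 374 tag counts, and 12.9% in tag7 cells (94 of 730; 10.5 to 15.5%), which needed 104. Irradiated cells were thus high 2.28 times as often as control cells (1.75 to 3.02) and 1.16 times as often as repopulated cells (0.942 to 1.45), an interval that includes equality. The median mitochondrial share was 6.74% in tag8, 6.15% in tag6 and 7.51% in tag7. In Mix1, with no tag limit, 7.62% of 17019 barcodes were high (7.22 to 8.02%) at a median share of 3.64%. The share of high cells also went with tag strength. It was 18.6% among tag8 cells with at least 3000 tag8 counts and 13.5% among those with fewer.

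**Figure D1:**
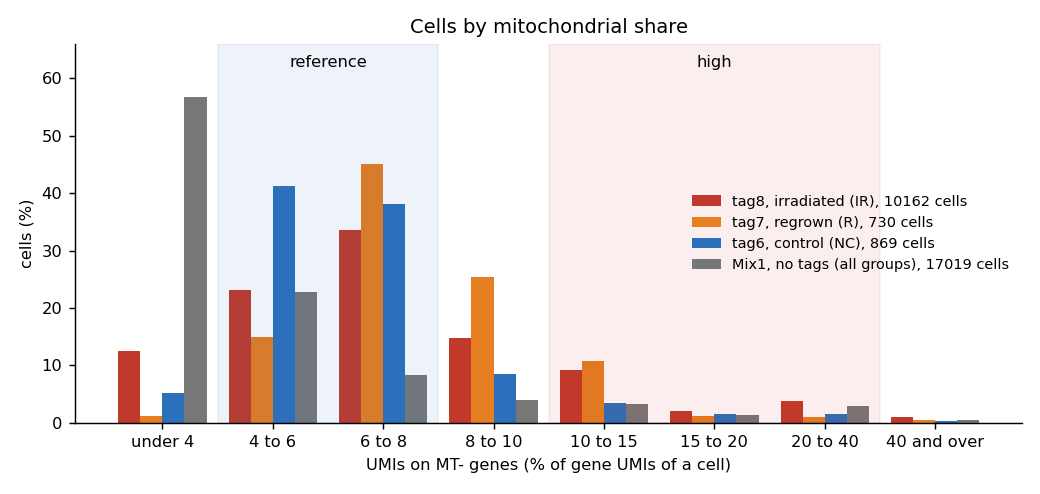
Percent of cells (y axis) in 8 ranges of the mitochondrial share of UMIs (x axis) for tag8, tag7 and tag6 cells of Mix2 and for all Mix1 barcodes; the shaded ranges are the reference (4 to 8%) and the high cells (10 to 40%). The tag8 bars are above the tag6 bars in every range from 8 to 10% upwards, and most Mix1 barcodes lie under 4%.

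The high cells held more mitochondrial and fewer other molecules. The median high cell had 871 MT- UMIs (quartiles 580 and 1304) and 5259 other UMIs (2865 and 8006), against 508 (395 and 674) and 7679 (6060 and 10093) in the reference. It showed 2110 detected genes against 2606, and a median tag8 count of 2083 against 1627. The balance changed along the range. Between 10 and 15% (926 cells) the median cell had 888 MT- UMIs and still 6703 others, and between 15 and 20% (211 cells) it had 983 and 4908. Between 20 and 40% (382 cells) it had 703 MT- UMIs, close to the cells just above 8%, and only 1788 others. Against the reference medians, cells of the lower part held more mitochondrial molecules at little loss of others, and cells of the upper part held far fewer others.

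**Figure D2:**
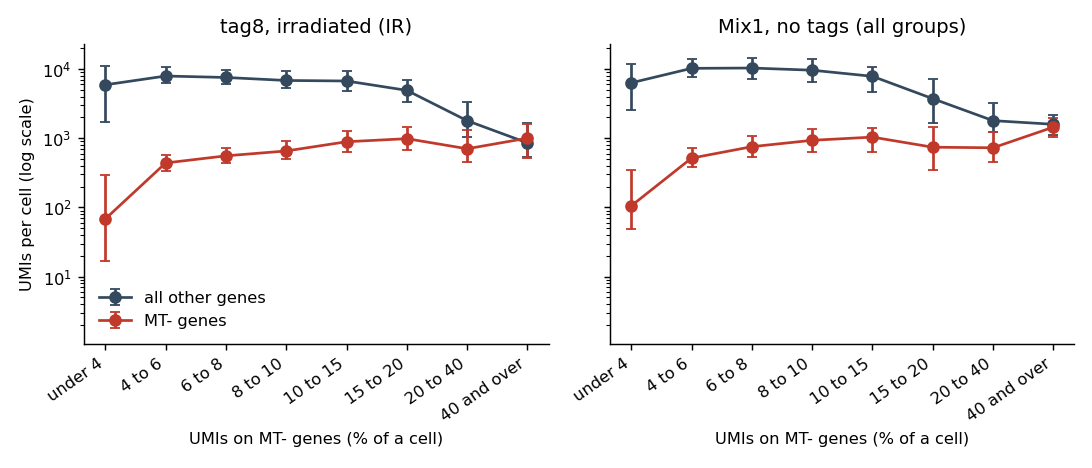
UMIs per cell (y axis, log scale) on MT- genes and on all other genes against the mitochondrial share (x axis) in tag8 cells and in Mix1; points are medians over cells and bars span the quartiles. In tag8 cells the median for other genes falls from 6703 at 10 to 15% to 1788 at 20 to 40%, while the MT- median stays between 703 and 983 from 10 to 40%.

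The values just inside and outside each limit are given as a description. Just outside the lower limit, at 9 to 10% (525 cells), CDKN1A stood at 708 CPM, NEAT1 at 919 and CCNB1 at 174, and just inside it, at 10 to 11% (331 cells), at 907, 978 and 136. CPM here is a gene's share of the UMIs outside the MT- genes, summed over the cells of a group and scaled to a total of 1000000. At the upper limit, cells at 35 to 40% (70 cells) and at 40 to 45% (40 cells) held 1026 and 802 CPM of CDKN1A. For the reference, CDKN1A was 399 CPM at 7 to 8% and 558 at 8 to 9%, and 591 at 4 to 5% against 931 at 3 to 4%. Among these 4 limits the step in CDKN1A was the largest at 4%.

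High cells (8980876 UMIs outside MT- genes) were then compared with reference cells (48970150) gene by gene. At 10 CPM or more in either group 8353 genes were measured, and 1392 of them, 16.7%, were higher by 1.5-fold or more in the high cells, while 362, 4.33%, were lower by as much. This is a rule of size with no test behind it. The median log2 ratio over all measured genes was 0.15, and the balance depended on scaling. With the trimmed mean of M values (TMM) 462 were higher and 1222 lower (median -0.16), and with ratios centred on the median measured gene 829 were higher and 626 lower. Gene groups are therefore read below against this median and not against 0.

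DNA damage-induced genes were higher in the high cells, and genes of the dividing cell were lower. TP53INP1, a stress-induced regulator of autophagy and cell death, had the highest ratio among genes at 50 CPM or more, with 61.5 CPM in high and 15.6 CPM in reference cells (3.94-fold, 3.53 to 4.41). TP53I3, a damage-induced quinone oxidoreductase, followed with 228 and 75 CPM (3.05-fold, 2.89 to 3.22). BTG2, an antiproliferative factor, stood at 58.5 and 20.8 CPM (2.81-fold), and ZMAT3, an RNA-binding protein, at 66 and 24.4 CPM (2.70-fold). GDF15, a secreted stress cytokine, was far more abundant, at 1499.7 and 567 CPM (2.65-fold, 2.59 to 2.70). CDKN1A, the inhibitor of cyclin-dependent kinases known as p21, went from 420 to 1054 CPM (2.51-fold, 2.45 to 2.57), or from 3.56 to 6.23 UMIs per cell, so that it was higher also as a plain number of molecules in cells that held fewer molecules.

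Of the 33 DNA damage-induced genes on the list 30 were measured, 23 were higher by 1.5-fold and 0 lower, with a median log2 ratio of 0.94 against 0.15 for all genes. MDM2, a ubiquitin ligase, was at 99.9 and 49.1 CPM, the death effector BBC3 (PUMA) at 74.3 and 30.9, FDXR, the ferredoxin reductase of mitochondria, at 165 and 70.9, and the translesion polymerase POLH at 19.7 and 8.11. The 7 members short of 1.5-fold ran from TRIAP1 (1.23-fold) and BAX (1.24-fold) to DDB2 (1.48-fold). Summed over the list, tag8 high cells held 4534 CPM against 2060 in the reference (2.20-fold, 2.18 to 2.23). The same contrast gave 2.66-fold in tag6 cells (2.46 to 2.87), 1.99-fold in tag7 cells (1.88 to 2.10) and 1.62-fold in Mix1 (1.60 to 1.64). CDKN1A itself was 4.68-fold higher in the 57 high cells that were never irradiated (3.97 to 5.48), whose median was 2937 UMIs outside the MT- genes. The direction was therefore shared by all 4 sets of cells, and the irradiated tag8 cells did not have the highest ratio.

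The genes of G2 and mitosis were the counterpart. Of 53 on the list 52 were measured, 0 were higher and 46 were lower by 1.5-fold, with a median log2 ratio of -1.06, and the summed level was 3431 CPM against 6585 (0.521-fold, 0.515 to 0.527). CCNB1, cyclin B1, which drives entry into mitosis, was at 99.2 and 243 CPM (0.408-fold, 0.381 to 0.437). CCNA2, cyclin A2, was at 23.3 and 60.6 CPM, the mitotic kinase AURKA at 34.3 and 89.2, and CDC20, an activator of the anaphase-promoting complex, at 93.2 and 229. HMMR and DLGAP5, both spindle proteins, were at 39.1 CPM each in the high cells against 101 and 99.4. KIF11, the motor that separates spindle poles, had the lowest ratio of the list, 0.299. The members least changed were RANGAP1 (0.938-fold) and CTCF (0.815-fold), which serve nuclear transport and chromatin architecture in all cells. Of 40 measured S phase genes 31 were lower and 0 higher (median -0.87, summed ratio 0.567). GMNN, a replication licensing inhibitor, was at 65.7 and 149 CPM, RRM2, a subunit of ribonucleotide reductase, at 58.6 and 122, and PCNA, the polymerase clamp, at 124 and 157.

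The 3 genes among the 12 lowest that held both motifs known for late cell cycle genes within 150 bases before the start site are shown. These motifs were common in the G2 and M group. For RMRP, HMGB2, AURKA and HIST1H1E, also among the 12 lowest, no promoter sequence was examined. Bases 150 to 1 before the RefSeq start site are printed 5′ to 3′ on the gene's strand (GRCh38.p14), with every TTTGAA (the cell cycle genes homology region, CHR) and CCAAT on either strand in capitals.
CDC20, chr1:43358831-43358980, plus strand: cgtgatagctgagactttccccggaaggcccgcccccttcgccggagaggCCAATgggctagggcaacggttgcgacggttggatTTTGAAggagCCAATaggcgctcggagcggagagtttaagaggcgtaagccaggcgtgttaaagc
HMMR, chr5:163460482-163460631, plus strand: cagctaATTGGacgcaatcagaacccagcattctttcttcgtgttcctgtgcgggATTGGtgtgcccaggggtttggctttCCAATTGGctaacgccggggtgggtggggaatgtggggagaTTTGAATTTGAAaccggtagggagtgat
DLGAP5, chr14:55191586-55191735, minus strand: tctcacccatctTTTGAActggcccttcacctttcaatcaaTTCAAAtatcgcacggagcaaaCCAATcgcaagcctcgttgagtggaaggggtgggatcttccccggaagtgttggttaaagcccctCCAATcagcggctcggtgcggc

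In the 250 bases before the start site TTTGAA or its reverse TTCAAA was present for 23 of the 43 measured G2 and M genes with a RefSeq entry (53.5%). It was present in 8.07% of the 6708 measured genes with an entry and in 13.6% of all 27305 promoters. CCAAT or its reverse ATTGG was present for 30 of the 43 (69.8%), against 35.9% of measured genes and 33.0% of all promoters. No TTTGAA overlapped a CCAAT in the 3 promoters shown, while CCAAT and its reverse overlap in the CCAATTGG of HMMR. Among measured S phase genes 1 of 30 held TTTGAA and 20 of 30 held CCAAT, so the S and G2/M genes, which were lower together, had shares of 3.33 and 53.5% for the first motif and of 66.7 and 69.8% for the second. For DNA damage-induced genes the counts were 1 and 12 of 22. These are matches of letters and not shown sites.

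Outside these groups, several RNAs that are retained in the nucleus were higher. NEAT1, the scaffold of paraspeckles, was at 1684 and 563 CPM (2.99-fold, 2.93 to 3.05), MALAT1, which sits in nuclear speckles, at 30010.0 and 14649 CPM (2.05-fold), and FTX at 32 and 14.4 CPM. Of 7 measured nuclear long noncoding RNAs 5 were higher, with PVT1 (1.25-fold) and JPX (0.982-fold) short of the limit. The summed ratio was 2.07 in tag8, 2.05 in tag6, 1.29 in tag7 and 2.99 in Mix1. MALAT1 held most of the counts in these sums, so each summed value given for this list mainly follows MALAT1. Droplets without cells also held much of these RNAs, 29385 CPM summed over the list against 32142 in high and 15507 in reference cells, and 9.35% of their UMIs were mitochondrial. Removing the same background of 10% with that profile from both groups changed the list's median from 0.97 to 1.12. An equal removal cannot show whether high cells held a larger cell-free part than reference cells. The part of cell-free RNA in the difference was not tested. Messenger RNAs of splicing factors that are often kept in the nucleus with introns did not go with them (median -0.12, summed ratio 0.872), and SRSF3 was at 241 and 459 CPM.

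A list of hair keratin-associated genes and kallikreins, which also held CPA4 and LCN2, was another group that was higher in high tag8 cells. All 9 measured members exceeded 1.5-fold, with a median log2 ratio of 1.24 and a summed level of 912 against 393 CPM. LCN2, a lipocalin that binds iron-carrying siderophores, was at 109 and 36.2 CPM (3.01-fold, 2.78 to 3.25), KRTAP3-1 at 78.8 and 29.8, CPA4, a secreted carboxypeptidase, at 182 and 71.8, and the protease KLK6 at 90.7 and 55.8. The summed list was higher in the other sets too, by 2.26-fold in tag6 (1.75 to 2.89), 1.69-fold in tag7 (1.44 to 1.97) and 1.84-fold in Mix1. Droplets without cells in Mix2 held 498 CPM of this list. That was above the high and reference cells of tag6 (318 and 140 CPM) and of tag7 (384 and 227 CPM). The part of cell-free RNA in these ratios was not tested. In control and repopulated cells the counts of single genes were small, and LCN2 was 1.05-fold (0.123 to 4.04) and 1.70-fold (1.16 to 2.44). The line's epithelial genes were in place in the high cells. EPCAM, an adhesion protein of epithelia, was at 321 and 348 CPM, the keratins KRT8 and KRT18 at 1804 and 2322 CPM against 1278 and 1735, CDH1, the epithelial cadherin, at 40.2 and 18.2, and the transcription factor ELF3 at 152 and 64.5. Of 10 measured epithelial identity genes 4 were higher and 0 lower. No marker of immune, endothelial or erythroid cells was measured at 10 CPM, and of 10 fibroblast markers ACTA2 alone was, at 10.8 and 4.12 CPM.

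Interferon-induced and lysosomal genes were higher more often than the 16.7% of all measured genes, and the stress lists stood nearer to that share. Of 21 measured interferon-induced genes 13 were higher and 0 lower (median 0.71). The largest ratios were in scarce genes, IFIT2 at 16.7 and 4.88 CPM and IFIT3 at 17.8 and 6.35, both antiviral proteins, while the abundant ISG15, a ubiquitin-like modifier, was at 1117 and 773 CPM (1.45-fold). Of 26 measured lysosomal genes 11 were higher and 0 lower (median 0.52), led by GRN at 144 and 69.5 CPM and PSAP at 397 and 191, the precursors of granulins and saposins. Summed over this list, droplets without cells held 2446 CPM, above the 2225 of high and the 1642 of reference cells. The part of cell-free RNA in the lysosomal difference was not tested. Immediate early genes counted 7 of 23 higher (median 0.33; JUN 62.4 and 32.5 CPM), but JUN was at 300.3 CPM in droplets without cells, above both groups. Apoptosis genes counted 3 of 18 (median 0.33), the share of all genes, and besides BBC3 these were BIK and BCL2L2. Under median-of-ratios scaling the medians of these last 2 lists were -0.01 each, beside -0.19 for all measured genes. In the ATF4 response, with a median of 0.02 and also near the share of all genes, 3 of 20 were higher (ATF3, SESN2, DDIT4) and 2 lower (PHGDH and ASNS, enzymes of serine and asparagine synthesis). SLC2A1, the glucose transporter GLUT1, was at 160 and 64.7 CPM, and 5 of 22 glycolysis and hypoxia genes were higher, with a median of 0.14 beside the 0.15 of all genes and a sum of 0.845-fold.

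The nuclear genes that build mitochondria did not follow the mitochondrial share. Of 38 measured nuclear subunits of complex I 0 were higher and 0 lower, with a median log2 ratio of -0.09 and a range from -0.40 to 0.25. Complexes II, III and IV (25 genes, median -0.10) and complex V (18 genes, -0.17) had no called member either. With TMM scaling these 3 medians were -0.41, -0.41 and -0.48, beside -0.16 for all measured genes. Of 77 mitochondrial ribosomal proteins (median -0.26) 3 were lower (MRPL35, MRPL11 and MRPS34), near the 4.33% of all measured genes. Of 31 genes of import and quality control SPG7, a protease of the inner membrane, was higher (114 and 61.8 CPM) and the co-chaperonin HSPE1 lower (905 and 1445 CPM). Both shares of that list were below those of all measured genes, 16.7% higher and 4.33% lower. TFAM, which packages mitochondrial DNA, was at 76.7 and 110 CPM (0.698-fold, 0.644 to 0.756), and of the 29 genes that express mitochondrial DNA 0 were called. In mitophagy and dynamics 4 of 20 were higher, near the 16.7% of all measured genes. These were SQSTM1 (797 and 503 CPM), BNIP3L (48.4 and 30.2), PINK1 (27.1 and 16) and OPTN (37.7 and 21), which are receptors of mitophagy and the kinase that starts it, while BNIP3 (0.948-fold), FUNDC1 (0.975-fold) and CALCOCO2 (0.986-fold), further receptors, were not. The median of that list was 0.12, below the 0.15 of all genes.

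Lists of abundant housekeeping genes had medians below the 0.15 of all measured genes. Calls at 1.5-fold here use ratios that were not centred on that median. Of 84 cytosolic ribosomal protein genes none reached 1.5-fold in either direction (median -0.04, summed ratio 0.979). Of 34 translation factors only EIF4A2 did (1.51-fold). Proteasome (34 genes, median -0.32), heat shock (17 genes, -0.27) and antioxidant and iron genes (25 genes, -0.08) had 0 called members, and so did the 3 measured metallothioneins (-0.43). HSP90AA1, a cytosolic chaperone, was at 4209 and 6161 CPM. Nucleolar genes had 1 of 28 lower (NCL, 1110 and 1755 CPM), near the 4.33% of all measured genes. Cytoskeletal genes had 5 of 24 lower, above that share, led by the tubulin TUBA1B at 779 and 1555 CPM. In histones HIST1H4C was at 998 and 2333 CPM and HIST1H2BD, whose mRNA can carry a poly(A) tail, at 32 and 11 CPM. Of 13 histones 2 were higher, near the 16.7% of all measured genes, and 4 lower, above the 4.33% of all. For ER stress 2 of 21, for cholesterol synthesis 2 of 18, with 1 lower, and for small nucleolar RNA hosts 1 of 9 (SNHG19) were higher. These shares of higher genes were below the 16.7% of all measured genes. The 10 genes of the study's own panels had a median of 0.39, above the 0.15 of all measured genes. Their summed level relative to the reference was 1.14 in high tag8 cells and 1.52 in tag8 cells under 4%. Of these 10 genes 2 were higher, near the 16.7% of all measured genes, and in Mix1 0 were. The 2 were CST3, a cysteine protease inhibitor, at 684 and 401 CPM, and SELENOM. They are genes of a list that the study also examined in these libraries. The study kept only droplets under 10% mitochondrial UMIs, so its results on these libraries do not cover the high cells described here.

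Splitting the high cells by their mitochondrial share separated these groups. For DNA damage-induced genes the summed level in tag8 cells relative to the reference was 1.34 at 8 to 10%, 2.05 at 10 to 15%, 2.57 at 15 to 20% and 2.88 at 20 to 40%. G2/M genes reached their low level early, at 0.53 by 10 to 15%, and were at 0.56 at 20 to 40%. The nuclear noncoding RNAs were at 1.56 at 10 to 15% and at 5.48 at 20 to 40%, where cytosolic ribosomal proteins were at 0.67, complex I at 0.76 and nuclear-retained splicing factor mRNAs at 1.37. At 10 to 15% these last 3 lists were at 1.03, 0.95 and 0.80. The median log2 ratio over the 7 nuclear noncoding RNAs, whose sum is mostly MALAT1, was 0.59 at 10 to 15% and 2.44 at 20 to 40%. In the cells of 10 to 15% all 3 groups, damage-induced, cell cycle and nuclear noncoding, were therefore away from the reference with ribosomal mRNA near its level, and in those of 20 to 40%, with 1788 other UMIs in the median cell, the nuclear noncoding RNAs were further away and ribosomal mRNA was lower. IFI6, an interferon-induced membrane protein, was at 157 CPM at 10 to 15% and at 102 at 20 to 40%, against 104 in the reference. KRT23 went the same way, from 10.8 to 4.2 CPM against 5.72.

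Tag8 cells under 4% mitochondrial UMIs were not the opposite of the high cells. In them DNA damage-induced genes stood at 1.80, hair keratins and kallikreins at 2.86 and G2/M genes at 0.40 of the reference, close to the high cells, while nuclear noncoding RNAs were at 0.50. Of these 1271 cells 51.9% had at least 3000 tag8 counts. The damage-induced and cell cycle pattern was thus present on both sides of the reference range and the nuclear RNA pattern on the high side only. In Mix1 the cells under 4% had 0.93 for DNA damage-induced genes and 0.995 for G2/M genes.

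**Figure D3:**
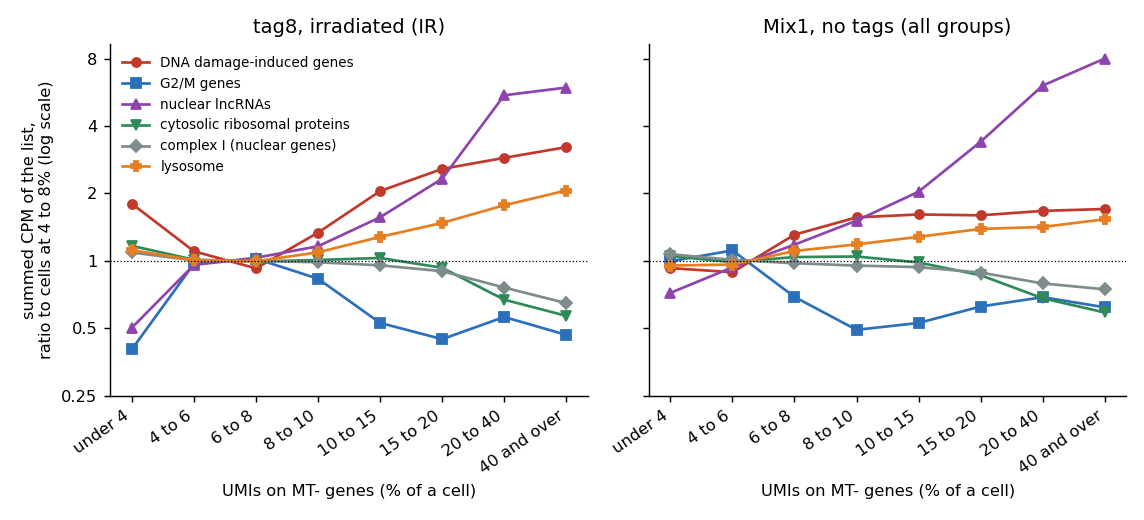
Summed CPM of 6 gene lists relative to cells at 4 to 8% (y axis, log scale, 1 marked by the dotted line) against the mitochondrial share (x axis) in tag8 cells and in Mix1. Nuclear lncRNAs climb to 5.48 in tag8 and 6.06 in Mix1 at 20 to 40%, where ribosomal protein genes are at 0.67 and 0.68, while DNA damage-induced genes in tag8 are also at 1.80 under 4%.

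Mix1, a separate library, was split by the same limits of mitochondrial share, and the gene lists were drawn up with its earlier results known. There, of 8572 measured genes 18.6% were higher and 3.64% lower by 1.5-fold between 1296 high and 5282 reference cells, with 18 DNA damage-induced genes higher and 0 lower, and 39 G2/M genes lower and 0 higher. All 12 genes with the highest and all 12 with the lowest ratio in tag8 cells had the same direction in Mix1, with ranges of 1.70 to 3.28 and 0.268 to 0.487. In tag6 cells all 24 kept their direction, and in tag7 cells 22 did, the exceptions being CPA4 (0.998-fold, 0.522 to 1.77) and KRTAP3-1 (0.855-fold, 0.163 to 2.88). Per-gene counts in the small groups were as low as 2 UMIs in tag6 and 3 in tag7, so single ratios there are imprecise. MND1, a recombination factor, had the lowest tag8 ratio among genes at 50 CPM or more, 18.7 against 55.6 CPM (0.337-fold), with 0.43 in tag6, 0.738 in tag7 and 0.439 in Mix1. RMRP, the RNA of the ribonuclease MRP, was next at 22.4 and 61.2 CPM (0.366-fold). HIST1H4C, a replication-dependent histone, was at 0.428 in tag8, 0.393 in tag6 and 0.946 in tag7.

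To set cells of different depth side by side, each was reduced to 1000 UMIs outside the MT- genes, which left out 99 high and 17 reference tag8 cells. The DNA damage-induced genes then counted 4.57 ± 3.69 UMIs (mean and SD over 1420 high cells) against 1.89 ± 2.17 (5755 reference cells), and 6.06% against 26.4% of cells held none. Without reduction the summed CPM ratio was the 2.20 given above. G2/M genes had a median of 2 UMIs against 6. The distributions overlapped widely, since the upper quartile of the high cells was 5 G2/M UMIs and the lower quartile of the reference cells 3.

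Of the reduced tag8 cells 37.2% of the high (528 of 1420) and 9.57% of the reference (551 of 5755) held 2 or fewer S and G2/M UMIs. The limit cuts a continuous score, and 424 high and 466 reference cells lay at 2 or 3 UMIs. Within these low-cycle cells CDKN1A was at 1258 CPM in high and 1243 in reference cells, a ratio of 1.01 (0.908 to 1.13), and GDF15 was at 1926 and 1584 (1.22, 1.11 to 1.33). TP53INP1 was at 1.93 (1.09 to 3.51), and TP53I3, BTG2 and ZMAT3 were at 1.23, 1.20 and 1.38 with intervals that include equality. The whole damage-induced list was at 1.17 (1.11 to 1.23), hair keratins and kallikreins at 0.940 (0.838 to 1.05) and interferon-induced genes at 0.958 (0.899 to 1.02). Among cells with over 2 cycle UMIs the same ratios were 3.03 for CDKN1A (790 and 261 CPM), 3.28 for GDF15, 2.50 for the damage-induced list, 3.02 for keratins and kallikreins and 1.32 for interferon-induced genes. CST3 was at 839 CPM in high and 902 in reference cells of the low-cycle class, and at 540 and 316 in the others. NEAT1 behaved otherwise and was higher in both classes, at 2477 and 864 CPM in low-cycle cells (2.87, 2.58 to 3.19) and at 1970 and 521 in the others (3.78, 3.56 to 4.02). The summed nuclear noncoding RNAs were at 2.68 and 2.63, with MALAT1, most of that sum, at 2.70 and 2.61. Cytosolic ribosomal proteins were at 0.876 and 0.896. High and reference cells with few cycle transcripts thus differed less in the DNA damage-induced list and the keratin and kallikrein list than the other cells did. The sum of the nuclear noncoding list, mostly MALAT1, differed by about as much in both classes, while NEAT1 within it differed less in low-cycle cells.

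**Figure D4:**
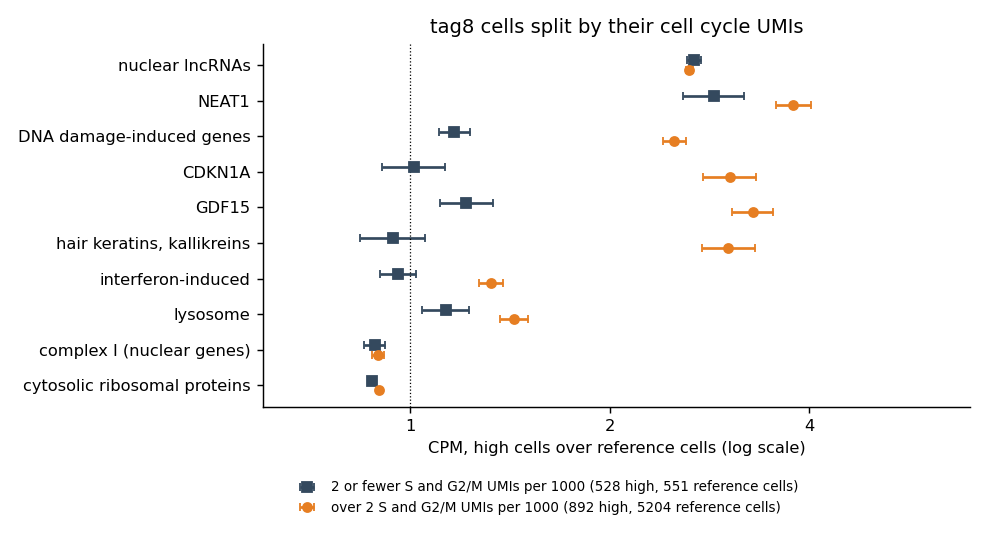
Ratio of CPM in high over reference tag8 cells (x axis, log scale; bars, 95% counting interval) for 10 genes or lists, in cells with 2 or fewer S and G2/M UMIs per 1000 (squares, 528 high and 551 reference cells) and in cells with more (circles, 892 and 5204). CDKN1A lies at 1.01 and 3.03 in the 2 classes and nuclear lncRNAs, mostly MALAT1 by count, at 2.68 and 2.63.

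In control cells the low-cycle share was 16.3% of high (8 of 49) and 1.30% of reference cells, in tag7 15.4% and 3.20%, and in Mix1 41.5% and 25.1%. In Mix1 CDKN1A was at 0.919 (0.832 to 1.01) in low-cycle cells and 1.98 (1.78 to 2.19) in the others, the damage-induced list at 1.11 and 1.90, and NEAT1 at 3.46 and 3.75. TP53INP1 was at 2.23 (1.51 to 3.27) and BTG2 at 1.75 (1.28 to 2.38) in low-cycle Mix1 cells. Intervals for GDF15, TP53I3 and ZMAT3 included equality. Keratins and kallikreins were above 1 there in low-cycle cells too, at 1.15 (1.04 to 1.27) against 2.35 in the others. The nuclear noncoding RNAs, close between the classes in tag8, were at 3.04 (2.99 to 3.09) and 4.18 (4.12 to 4.23) in Mix1. In tag6 and tag7 the low-cycle classes held 8 to 14 cells each and allow no such reading.

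Because total mitochondrial UMIs chose the cells, their make-up was examined apart, as each gene's share of all MT- UMIs. The marker genes MT-CO1 and MT-ND1, subunits of complexes IV and I, made up 10.5 and 3.09% of MT- UMIs in the high cells and 9.81 and 3.28% in the reference, so both followed the total. The gene that departed most was MT-ND6 (mitochondrial genome 14149 to 14673), the only one of the 13 on the light strand. It made up 0.565% of MT- UMIs in the high cells (8607 UMIs) and 1.33% in the reference (43166), a ratio of 0.423 (0.414 to 0.433). As a share of all UMIs it was level, 0.0819 and 0.0827%, while the other 12 together were higher by the choice of cells. The ratio was 0.726 in tag6 (0.665 to 0.791), 0.606 in tag7 (0.561 to 0.653) and 0.648 in Mix1 (0.628 to 0.668). MT-ND6 was lower in all 4, and furthest in the irradiated cells of Mix2.

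MT-ND6 also differed between reference cells, in the order 2.21% of MT- UMIs in tag6, 1.73% in tag7, 1.33% in tag8 and 0.595% in Mix1. Along the tag8 range it was 1.43% at 4 to 6%, 0.522% at 10 to 15% and 0.768% under 4%. It went with the cell cycle classes: in the reference it was 1.46% in tag8 cells with over 2 cycle UMIs and 0.368% in low-cycle cells, and in the high cells 0.719 and 0.272%. Within the classes the ratio of high to reference was 0.493 (0.481 to 0.507) and 0.740 (0.687 to 0.796). In Mix1 it was 0.671 (0.647 to 0.696) in cells with over 2 cycle UMIs and 0.961 (0.897 to 1.03) in low-cycle cells, an interval that includes equality. Of the heavy-strand genes MT-ATP8 (0.677), MT-ND2 (0.765) and MT-CO3 (0.815) made up less of the total in high tag8 cells and MT-ND5 (1.30) and MT-CYB (1.21) more. MT-ND2 and MT-CO3 were at 0.978 and 1.01 among low-cycle cells and at 0.798 and 0.821 among the others. MT-ND3 and MT-CO2, the most abundant, were at 1.04 and 1.06. Reads were not checked for strand here, and the strand setting of the counting was not given in the sources used here.

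**Figure D5:**
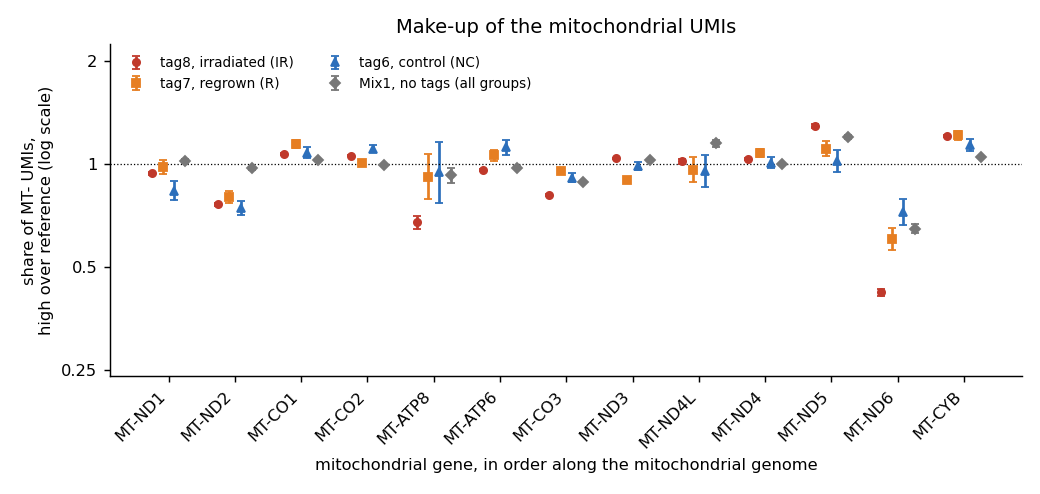
Each mitochondrial gene's share of MT- UMIs in high over reference cells (y axis, log scale; bars, 95% counting interval), with the 13 genes in genome order (x axis), for tag8, tag7 and tag6 cells and Mix1. MT-ND6 is lowest in tag8 (0.423), and below 1 in all 4 sets.

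Tag strength went with the contrast. At least 3000 tag8 counts were found in 35.2% of high and 22.2% of reference cells. Among these strongly tagged cells the damage-induced median was 0.55 and the G2/M median -0.49, and among weaker ones 1.17 and -1.20, with the nuclear noncoding RNAs at 1.10 and 1.07. Weighting the reference cells to the tag8 counts of the high cells gave 0.86 for DNA damage-induced genes and -0.98 for G2/M, and weighting them to the high cells' depth 0.92 and -0.99. The part that tag strength has in the damage-induced and cell cycle difference was not tested beyond these values. Doublets of irradiated cells share a tag and were not removed, and high cells had fewer UMIs than reference cells. With 1 library for each population, the spread between cultures is unknown for every value given here.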

How the data were processed

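HCT116 cells were profiled with the 10x Genomics 3' kit (v3.1) in 2 libraries. The authors deposited whole UMI counts per gene and barcode, made with Cell Ranger (3.1.0 for Mix1 and 3.0.1 for Mix2 per the file headers) and not normalized; the submitters' processing notes also name Seurat 2.3 and the builds GRCh38 and mm10, and the 33538 features were human genes. The unfiltered counts of Mix2, deposited as a further sample, differed in 0 entries over the 13888 cell barcodes and served only for droplets without cells (1 to 100 UMIs, 1467872 droplets). Mix1 held 17019 barcodes and 159242469 UMIs, Mix2 107393576; 59 barcode sequences occurred in both.

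Counts were summed per group and scaled to CPM without MT- genes (Python 3.11.15, numpy 2.4.6, scipy 1.17.1, pandas 2.3.3). A gene was measured at 10 CPM in either group and called at a ratio of 1.5. Intervals are exact at 95% (Poisson, conditional binomial, Clopper-Pearson) and cover counting error only. Cells are not replicates and no test was made; no doublet caller was run. The ratio code was tested on simulated data. Named genes were the MT- genes, the 12 highest and 12 lowest ratios at 50 CPM or more, up to 3 members of each list farthest from 1 and 20 fixed genes; further list members named were chosen after their values were seen. Members and lists were chosen with earlier results of these data known. The classes by cycle UMIs, the promoter motifs and 2 scalings on measured genes were added after the data were seen. Alternatives changed scaling (TMM of edgeR 4.0.16), gene filter, limits, tag rule, depth, weighting and background. One annotation of the line is not reported here. Gene positions are from GENCODE 44 and promoters from RefSeq (GRCh38.p14), matched by symbol.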

Additional observations from a re-analysis of the deposited data

Results flagged for a closer look

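2 gene lists had summed levels on opposite sides of the reference in tag8 cells and in Mix1, with both counting intervals excluding equality; the difference itself was not tested. Nuclear-retained splicing factor mRNAs were at 0.872 in high tag8 cells and 1.10 in Mix1, and antioxidant and iron genes at 1.08 and 0.981.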

How the results depend on the processing

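The number of genes past 1.5-fold depended on scaling, filter and depth, against 1392 higher and 362 lower. TMM scaling gave 462 and 1222 and median-of-ratios scaling 410 and 1365 (medians of all measured genes -0.16 and -0.19); the cause was not tested. Chosen after seeing the data, TMM on measured genes gave 875 and 591, as did totals with MT- genes, and centring on their median 829 and 626. Genes at 50 CPM gave 245 and 181, and those with 1 UMI or more in each group 6097 and 885. High cells of 20 to 40% alone gave 4355 and 944. Strong tag8 cells left 114 lower, equal weight per cell gave 2256 higher and cells thinned to 1000 UMIs 2342. For the other settings run, both counts stayed within 1.5 times.

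The share of high tag8 cells was 13.8% in cells with 1000 genes or more, 16.0% with no upper limit, 18.6% in strongly and 13.5% in weakly tagged cells. It was 4.94% in tag6 cells with 1000 genes or more. At 95% of the tag counts the tag7 share was 31.2%, but this left 20 of 64 cells.

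Medians of DNA damage-induced genes (0.55 to 1.49), G2/M genes (-1.40 to -0.49), S phase genes (-1.21 to -0.48), nuclear noncoding RNAs (0.63 to 2.44), and keratins and kallikreins (0.58 to 1.64) kept their sign in all 20 alternatives run. Of the called genes named, KRT23 (-0.44) and IFI6 (-0.024) reversed in cells of 20 to 40%; the cause was not tested. Depth limits the tag6 and tag7 groups, with 57 and 94 high cells, and no paired analysis was possible because each population was sequenced once.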
